A study of Mus musculus with 59 samples.

Results

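The tumour-only regions described here are stretches of the mouse autosomes that carried the repressive histone mark H3K27me3 in most brainstem tumours and in no cultured neurosphere. Islands, the broad stretches of enrichment that a caller reports, were merged over all 20 deposited H3K27me3 lists. A merged region was kept when at least 8 of the 11 tumour lists and none of the 9 neurosphere lists held an island in it. This gave 1448 of 51605 merged autosomal regions, or 2.81%. The number depends on the lists: it was 247 when all 20 lists were held to the same number of top islands, and 3580 when only the K27M neurosphere lists had to be empty. It was 1484 when only the WT neurosphere lists, all from hindbrain, had to be empty, so the K27M neurosphere lists removed few further regions. The 1448 regions were 20.9% of the 6933 regions with an island in 8 or more tumour lists. The regions were chosen by their island calls, so their presence in tumours and their absence in neurospheres are a description with no test. Absence means that a list holds no island there, not that the mark was measured as 0.

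The series profiled histone marks by chromatin immunoprecipitation and sequencing in mice with a tagged K27M change knocked into H3f3a, a gene for the histone variant H3.3. K27M tumours (6) arose in mice with Nestin-creERT2, the knock-in allele H3f3aLSL-K27M-Tag/+, mutant LSL-PDGFRαV544ins and the conditional Trp53flox/flox. WT tumours (5) had H3f3aLSL-WT-Tag/+ in place of the K27M allele. Both genotypes therefore share the Cre driver active in Nestin-expressing cells, the tag, the mutant PDGFRα and the conditional loss of Trp53. The neurospheres were cultured neural precursors from e15.5 embryos of Nestin-cre mice with the K27M-Tag allele (3 forebrain and 3 hindbrain libraries) or the WT-Tag allele (3 hindbrain libraries), and their labels list no PDGFRα or Trp53 allele. H3K27me3 was profiled in all 20 of these. H3K27ac was profiled in the 11 tumours, and H3K4me3 in K27M tumours 2 and 6 and WT tumours 7, 9 and 10. K27M tumours 1 to 4 and WT tumour 9 were male, and the other tumours were female. The tissue label could not be set against marker genes, since the lists carry positions in build mm9 (counted from 1 here) and no gene names.

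H3K27me3 is laid down by Polycomb repressive complex 2 and marks genes that are kept silent. H3K27ac sits at active promoters and enhancers, and H3K4me3 at promoters. K27M histone inhibits Polycomb repressive complex 2, and its best known effect in glioma is a broad loss of H3K27me3 with retention at a subset of sites. Promoters that carry H3K4me3 and H3K27me3 together are called bivalent and are common among developmental genes in stem cells. In bulk tumour tissue, fewer cells with a mark and less mark per cell cannot be told apart, and marks found in 1 region need not lie in the same cells.

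Depth differed between libraries. Autosomal reads inside islands ranged from 2346983 (K27M tumour 5) to 9370425 in K27M tumours, from 1878972 (WT tumour 11) to 14400936 (WT tumour 10) in WT tumours, and from 3775395 to 9072944 in neurospheres. Islands covered 67.1 to 302 Mb in the tumour lists. They covered 37.3 to 45.6 Mb in the K27M neurosphere lists and 144.9 to 190.6 Mb in the WT neurosphere lists. Sequencing totals are not given in the sources used here, so reads are given per kb of island or as RPM, reads per 1000000 autosomal island reads of the same tumour.

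Region width is that of islands merged over all lists, so a region fed by more lists tends to be wider by construction. A wider region is also more likely to meet a neurosphere island. The orderings of width given here therefore follow at least in part from the rule, and how far was not tested. By this measure the tumour-only regions were of middling width. Their median width was 16.6 kb (quartiles 10.6 and 25.4 kb, range 2.2 to 182.6 kb) and they summed to 30.2 Mb. The other regions with an island in 8 or more tumour lists had a median width of 27.6 kb, and all merged regions one of 6 kb. Regions held by 8 or more tumour lists and all 9 neurosphere lists (1744 in number) had a median of 41.4 kb. Width differed with the number of tumour lists. The 555 regions called in 8 tumours had a median of 14.6 kb, the 415 called in 9 tumours 16.4 kb, the 291 called in 10 tumours 18.4 kb and the 187 called in all 11 tumours 23.4 kb. Just outside the thresholds, 720 regions with 7 tumour lists and no neurosphere list had a median of 12.6 kb. A further 587 regions with 8 or more tumour lists and 1 neurosphere list had a median of 18.6 kb.

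Within each tumour the islands of these regions ranked near the middle. Their median read density, ranked among all islands of the same list, lay between percentiles 42.6 and 57.1 over the 11 tumours. In K27M tumours their median density was 30.8 ± 7.74 reads per kb of island (SD, n = 6; range 22.3 to 45.2), against 26.5 ± 7.37 reads per kb in WT tumours (SD, n = 5; range 20.5 to 39.3). K27M tumours held 5.59% ± 0.636 (SD, n = 6) of their autosomal island reads in these regions, and WT tumours 6.24% ± 0.641 (SD, n = 5). The genotypes overlapped in both measures. A called region was covered only in part, and each tumour split it into 1.29 to 2.08 islands on average.

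The number of tumour-only regions with an island varied with the tumour more than with the genotype. K27M tumours 1 to 6 called 1377, 1404, 1351, 993, 866 and 1096 of the 1448 regions. WT tumours 7 to 11 called 1340, 1052, 1322, 1370 and 971. The lowest counts of each genotype came from K27M tumour 5 and WT tumour 11, the tumours with the fewest island reads, and the part of depth in the counts was not tested. The mean share was 81.6% ± 15.7 (SD, n = 6) in K27M tumours against 83.6% ± 12.8 (SD, n = 5) in WT tumours. By share of tumours, 603 regions were called more often in K27M, 658 more often in WT and 187 in all 11 tumours. With at least 8 tumours calling each region, the smallest two-sided p that Fisher's exact test could give for a genotype difference in calls was 0.0606, so no single region was tested on its calls.

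Many tumour-only regions also held a peak of an active mark in at least 1 tumour. A peak was counted whether or not the same tumour had an H3K27me3 island in the region. An H3K4me3 peak of at least 1 tumour lay in 795 regions (54.9%), and all 5 profiled tumours had one in 521 (36.0%). An H3K27ac peak lay in 638 regions (44.1%), and all 11 tumours had one in 239 (16.5%). The same shares were 22.8% for H3K4me3 and 27.2% for H3K27ac over all merged regions. They were 73.4% and 64.2% over the other regions of 8 or more tumour lists. Width bears on these shares. From 5 to 10 kb, 60.4% of tumour-only and 64.1% of the other regions held H3K4me3, and at 20 kb or more the shares were 52.0% and 76.7%. In tumour-only regions the H3K4me3 share was no higher in wide than in narrow regions, while in the other regions it was higher in the wide ones.

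Active marks sorted the tumour-only regions towards both ends. An H3K4me3 peak in all 5 tumours and an H3K27ac peak in all 11 was found in 238 regions (16.4%), called doubly marked from here on. No peak of either mark in any tumour was found in 584 (40.3%), called unmarked. The remaining 626 regions had peaks in some tumours or of 1 mark only. Among them were 226 regions with H3K4me3 and no H3K27ac and 69 with H3K27ac and no H3K4me3. The doubly marked share was 6.29% over all merged regions and 19.7% over the other regions of 8 or more tumour lists. The unmarked shares were 67.6% and 20.6%. These classes were drawn up after the values had been seen. Doubly marked and unmarked regions were of like width, with medians of 16.2 and 17.4 kb.

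**Figure D1:**
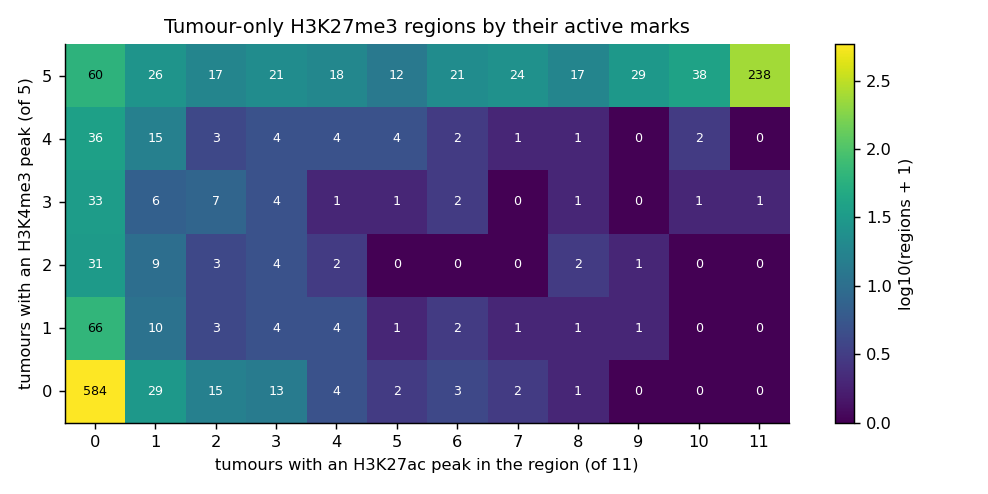
Each cell gives the number of tumour-only H3K27me3 regions by the number of tumours with an H3K27ac peak in the region (x axis, of 11) and with an H3K4me3 peak (y axis, of 5), with colour as log10 of the number plus 1. The 1448 regions gather in 2 corners, with 584 that held no peak of either mark and 238 that held both in every tumour profiled for them.

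The active marks in doubly marked regions ranked high in their lists. This follows in part from the choice, since the class needs a peak in every list and only the strongest peak is ranked. Peaks were ranked within each list by the authors' −log10 q-value, and the strongest peak of each region was taken. For H3K27ac its median lay between percentiles 78.4 and 87.5 of the list in K27M tumours and between percentiles 76.8 and 87.2 in WT tumours. H3K27ac peaks covered a median of 1.56 to 2.16 kb per region in K27M tumours and 1.26 to 2.56 kb in WT tumours. For H3K4me3 the percentiles were 77.4 and 78.5 in the 2 K27M tumours and 73.6 to 80.0 in the 3 WT tumours. In the other doubly marked regions of 8 or more tumour lists the H3K27ac percentiles were 74.4 to 85.1 in K27M tumours against 71.3 to 83.7 in WT tumours, which overlaps those of the tumour-only regions.

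As a share of island reads, H3K27me3 in the doubly marked regions was higher in every K27M tumour than in any WT tumour. The contrast is a description with no test, since the regions were chosen by these island calls and an uncalled region adds 0 reads. All 6 K27M and 2 WT tumours called 44 of the doubly marked regions, against 1 called by all 5 WT and 3 K27M tumours. The share of autosomal island reads that these 238 regions took was lowest at 1.45%, had a median of 1.59% and was highest at 1.81% over the 6 K27M tumours. In WT tumours 7 to 11 it was 0.684%, 0.308%, 0.891%, 0.652% and 0.572%. The mean was 1.61% ± 0.131 (SD, n = 6) in K27M tumours against 0.621% ± 0.211 (SD, n = 5) in WT tumours. The genotypes did not overlap over all tumours, nor among females (1.59% and 1.72% in the 2 K27M tumours, 0.308% to 0.684% in the 4 WT tumours). The 4 male K27M tumours had 1.45% to 1.81% and the single male WT tumour 0.891%. The 1082 other doubly marked regions of 8 or more tumour lists also separated the genotypes, with 24.4% ± 2.38 (SD, n = 6) in K27M tumours against 17.4% ± 1.82 (SD, n = 5) in WT tumours.

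In WT tumours many doubly marked regions lacked an island, and islands that were present were shorter on average. Island calls chose the regions, so the contrast in called share is a description as well. K27M tumours called a lowest of 84.0%, a median of 96.2% and a highest of 99.2% of the 238 regions. WT tumours 7 to 11 called 81.9%, 40.3%, 90.8%, 86.1% and 45.8%. WT tumours 8 and 11 stood far below every K27M tumour, while WT tumours 9 and 10 fell inside the K27M range. All 6 K27M tumours called 165 of these regions (69.3%), and all 5 WT tumours called 37. In the other doubly marked regions all 6 K27M tumours called 75.8% and all 5 WT tumours 63.0%. The median island length per called region averaged 9.02 kb in K27M tumours against 5.42 kb in WT tumours, and its median coverage of the region 62.2% ± 15.1 (SD, n = 6) and 34.7% ± 11.2 (SD, n = 5). The genotypes overlapped in both.

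Islands often ran over the H3K27ac peak itself. Where a tumour had both an island and an H3K27ac peak in a tumour-only region, 87.4% ± 3.72 (SD, n = 6) of the regions in K27M tumours against 73.4% ± 11.3 (SD, n = 5) in WT tumours had an island that overlapped a peak by at least 1 bp. In doubly marked regions the shares were lowest at 87.9%, 94.98% in the median and highest at 97.5% in K27M tumours. The WT values, for tumours 7 to 11, were 82.6%, 61.5%, 88.4%, 87.3% and 74.3%. All WT tumours but number 9 lay below the lowest K27M tumour. The other doubly marked regions had 76.5% ± 7.29 (SD, n = 6) in K27M tumours against 66.6% ± 13.0 (SD, n = 5) in WT tumours.

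The unmarked regions leaned the other way. They too were chosen by island calls, with 12 called by all 6 K27M and 2 WT tumours and 90 by all 5 WT and 3 K27M tumours. The share of autosomal island reads in the unmarked regions was lowest at 1.31%, had a median of 1.54% and was highest at 2.34% in K27M tumours. In WT tumours 7 to 11 it was 2.65%, 3.06%, 2.46%, 2.245% and 2.89%. K27M tumour 2, the highest of its genotype, lay above WT tumour 10, the lowest of its own, so the groups overlapped. All 6 K27M tumours called 115 of the 584 unmarked regions (19.7%), and all 5 WT tumours called 280 (47.9%). The mean called share was 76.3% ± 19.4 (SD, n = 6) in K27M tumours against 86.5% ± 12.2 (SD, n = 5) in WT tumours. The 1128 other unmarked regions of 8 or more tumour lists took 5.37% ± 0.619 (SD, n = 6) of reads in K27M tumours against 7.37% ± 0.535 (SD, n = 5) in WT tumours.

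**Figure D2:**
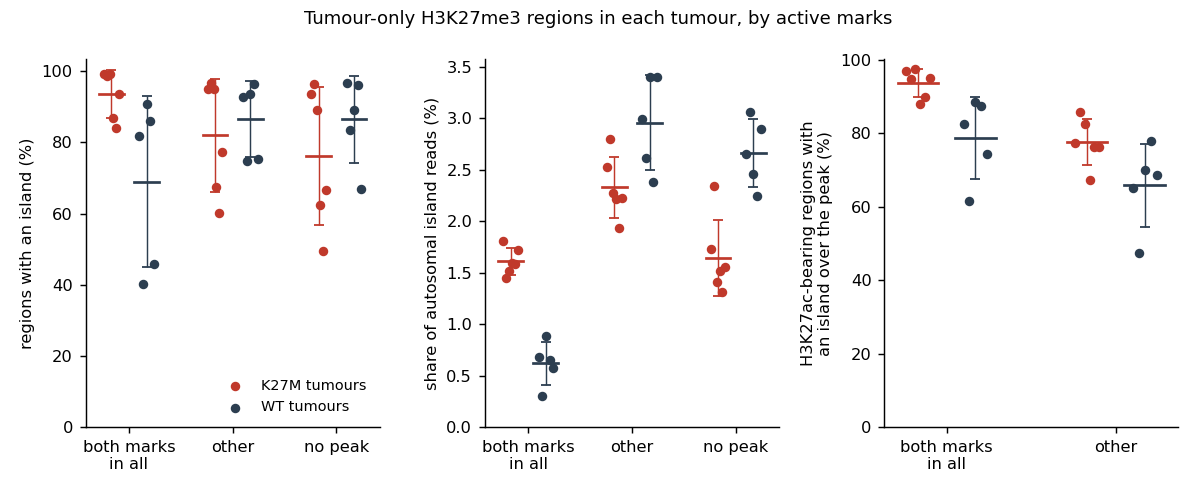
Points are single tumours (6 K27M left, 5 WT right in each class), with lines for the mean and bars for the SD. From left, the panels plot the percentage of tumour-only regions with an island, the percentage of autosomal island reads in them, and, of regions with an island and an H3K27ac peak, the percentage with an island over the peak. The genotypes part without overlap only in the read share of the doubly marked regions, at 1.45% to 1.81% in K27M tumours against 0.308% to 0.891% in WT tumours. The regions were chosen by these island calls, so the panels are a description with no test.

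The genotypes overlapped in how often H3K27ac was found. A peak lay in 28.3% ± 3.39 (SD, n = 6) of the tumour-only regions in K27M tumours against 27.5% ± 3.70 (SD, n = 5) in WT tumours. H3K4me3 peaks lay in 49.3% and 45.9% in K27M tumours 2 and 6, and in 45.4%, 39.9% and 44.8% in WT tumours 7, 9 and 10. Of the tumour-only regions, 111 had a number of H3K27ac calls that could reach an unadjusted p under 0.05 in Fisher's exact test. After Benjamini-Hochberg adjustment over all 2954 such regions, 0 regions were called (0%), and the smallest adjusted p by Fisher's exact test was 0.486. With 6 and 5 tumours, Fisher's exact test can give no two-sided p below 0.00217. A region could pass the adjustment only if many others reached that value too, so the lack of calls does not show that the genotypes are alike. At an unadjusted p under 0.05 there were 92 regions (3.11%), 1 of them tumour-only. It was chr10:41734401-41751400 (17 kb), with H3K27ac in 6 of 6 K27M and 1 of 5 WT tumours (two-sided Fisher's exact p = 0.0152, not significant after adjustment).

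The 5 doubly marked regions with most reads are named by position. They were picked by reads summed over all tumours, so a region could enter through the genotype where it is high, and the direction of their difference supports nothing. No annotation of build mm9 was at hand, so the genes, exons, introns or UTRs at these places are not given. RPM values were lowest at 316, had a median of 425 and were highest at 504 in K27M tumours at chr16:32495001-32579400 (84.4 kb). WT tumours 7 to 10 had 86.6, 20.7, 147.6 and 133.9, and WT tumour 11 had no island. At chr10:84212601-84310200 (97.6 kb) K27M tumours had 301.2, 392.3 and 423.9 RPM as lowest, median and highest. WT tumours 7, 9, 10 and 11 had 101.6, 59.0, 61.7 and 114.4, and WT tumour 8 had no island. At both regions every K27M tumour lay above every WT tumour.

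The island at chr3:34529201-34579600 (50.4 kb) spanned 35.4 to 45 kb in all K27M tumours. RPM values there were lowest at 221.6, had a median of 367 and were highest at 828 (K27M tumour 5). WT tumours 7, 9, 10 and 11 had 57.8, 20.2, 99.2 and 235.8, and WT tumour 8 had no island. Only WT tumour 11 reached into the K27M range. At chr1:42727201-42786400 (59.2 kb) K27M tumours had 217.7, 336 and 581 RPM as lowest, median and highest. WT tumours 7, 9, 10 and 11 had 50.0, 73.0, 47.6 and 38.9, and WT tumour 8 had no island. At chr15:73243801-73312200 (68.4 kb) the K27M values were 103.5, 300.8 and 379. WT tumours 7, 9 and 10 had 94.1, 67.1 and 155.5, and WT tumours 8 and 11 had no island. The groups did not overlap at the chromosome 1 region, and overlapped at the chromosome 15 region through K27M tumour 5 and WT tumour 10.

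Of all tumour-only regions, chr5:119851401-120034000 was the widest (182.6 kb) and held most reads, 30215 over the 11 tumours. It was called in all 11 tumours, with an H3K4me3 peak in 1 and an H3K27ac peak in 4. K27M tumours had 82.0, 351 and 555 RPM as lowest, median and highest. WT tumours 7 to 11 had 135.8, 263.7, 851, 464 and 1759. The groups overlapped broadly, and the island length ran from 17 kb in K27M tumour 6 to 173.4 kb in WT tumour 9. The third region by reads, chr8:3680201-3755000 (74.8 kb), held no active mark in any tumour. Its K27M values were 213.1, 347 and 424 RPM as lowest, median and highest, and WT tumours 7 to 11 had 145.9, 271, 104.5, 145.7 and 63.9. WT tumour 8 reached into the K27M range, and the other WT tumours did not.

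**Figure D3:**
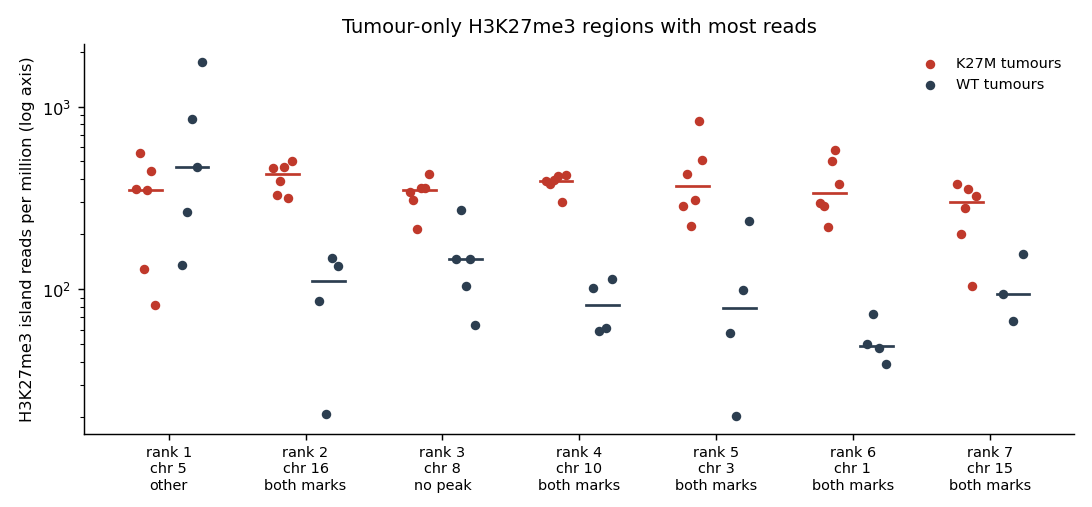
The 7 regions are the tumour-only regions with most reads, overall and among the doubly marked ones, named by rank, chromosome and class. Points are H3K27me3 RPM of single tumours (log axis; K27M left, WT right; tumours with no island are not drawn), with lines at the median. At the chromosome 16, 10 and 1 regions all K27M points lie above all WT points, while at rank 1 the WT points reach 1759 against 555 in K27M.

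Other wide regions differed in which tumours held them. The region chr5:136792801-136920800 (128 kb) was called in all 5 WT and 3 of the 6 K27M tumours. K27M tumours 1, 3 and 6 had 13.6, 24.2 and 10.4 RPM, and WT tumours 7 to 11 had 111.0, 107.8, 626, 8.82 and 78.2. WT tumour 9 alone carried an island over the full 128 kb. The region chr14:35308801-35393600 (84.8 kb, doubly marked) was called in 9 tumours. K27M tumours had 135.9, 237.7 and 263.7 RPM as lowest, median and highest, and WT tumours 7, 9 and 10 had 24.97, 33.3 and 69.3. The groups did not overlap there, and WT tumours 8 and 11 had no island.

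The regions with most reads per kb were short. The densest, chr3:5858601-5861000, was 2.4 kb wide and averaged 275.8 reads per kb of island over the 10 tumours that called it. The next were chr8:20031201-20033800 (2.6 kb, 103.9 reads per kb), chr18:68851601-68853800 (2.2 kb, 97.2 reads per kb) and chr2:22598801-22604000 (5.2 kb, 86.6 reads per kb). None of the first 3 held a peak of either active mark. At the densest region raw reads lay between 214 and 300 in each of the 10 tumours and were not proportional to depth. The highest counts, 300 and 294, were nonetheless those of K27M tumours 6 and 2, the K27M tumours with most island reads. WT tumours 11 and 10, with the fewest and the most island reads, had 214 and 281. Whether these reads reflect the mark was not tested. The fifth, chr17:71190801-71205200 (14.4 kb, 64.8 reads per kb), was doubly marked. Its K27M values were 63.7, 107.4 and 116.1 RPM as lowest, median and highest. WT tumours 7, 9, 10 and 11 had 38.1, 68.4, 40.4 and 43.6, with no island in WT tumour 8. Only WT tumour 9 reached above the lowest K27M tumour there.

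Read counts were tested between genotypes with edgeR over the 2971 regions that all 11 tumours called, 187 of them tumour-only. The counts hold only reads inside each tumour's own islands, so they depend on the called length and leave out the rest of the region. At chr11:99450201-99503200, for example, the called length ran from 0.8 kb in WT tumour 11 to 45.6 kb in WT tumour 8. These 187 are the regions that reached all 11 lists, and the other 1261 had no count in at least 1 tumour and were not tested. At an adjusted p under 0.05 (edgeR quasi-likelihood test, Benjamini-Hochberg), 22 tumour-only regions were called (11.8%), beside 12.8% of all regions tested. K27M was higher in 10 (5.35%, beside 7.34% of all) and lower in 12 (6.42%, beside 5.42% of all). The shares lie close to the background. Over all regions tested, 218 were higher and 161 lower. Scaling to the reads summed over the tested regions, without TMM factors, turned this balance to 163 higher and 335 lower. It turned that of the tumour-only regions to 9 higher and 31 lower. The median log2 fold of K27M over WT was -0.24 for the tumour-only regions and -0.10 for all regions tested. CPM are reads per 1000000 reads in the tested regions after TMM scaling, so they rest on another total than RPM. CPM of the genotypes did not overlap in 11 tumour-only regions with K27M higher (5.88%, beside 5.79% of all) and in 8 with K27M lower (4.28%, beside 3.4% of all). The counts depended on single tumours. Without WT tumour 8 they were 25 higher and 6 lower among 255 tumour-only regions tested, with a median log2 fold of 0.0085, without WT tumour 11 24 higher, without K27M tumour 1 6 lower and without K27M tumour 6 7 lower.

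Among the regions tested, the direction of the read difference went with the active marks. This is a description with no test of its own. The classes were drawn up after the values had been seen, and regions of the same tumours are not replicates. The 0 line also rests on the scaling: without TMM factors the median log2 fold of all regions tested was -0.30 in place of -0.10. Only 19 of the 238 doubly marked and 54 of the 584 unmarked regions were called in all 11 tumours and so tested. Of the 19 doubly marked regions tested, 17 had a log2 fold above 0, with a median of 0.73. Of the 54 unmarked regions tested, 12 had a log2 fold above 0, with a median of -0.61. Among tested regions with a neurosphere island, the doubly marked (575) had a median of 0.23, with 61.2% above 0, and the unmarked (284) a median of -0.42, with 17.96% above 0. Of the 10 regions that were higher in K27M, 9 held an H3K27ac peak in at least 1 tumour and 4 were doubly marked. Of the 12 that were lower, 3 held an H3K27ac peak and 0 were doubly marked. Called regions with a neurosphere island leaned the same way. Among them 80 doubly marked regions were higher and 29 lower, and 4 unmarked regions were higher and 26 lower. The lean is therefore not particular to the tumour-only regions. H3K27ac peaks and widths were not counted for those other called regions. The tumour-only regions that were higher had a median width of 20 kb and those that were lower 45.5 kb.

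Of the tumour-only regions past the edgeR threshold, the one with the largest log2 fold towards K27M was chr6:114209001-114246600 (37.6 kb, doubly marked). K27M tumours had 66.3, 96.3 and 125.3 RPM as lowest, median and highest, and WT tumours 7 to 11 had 9.39, 12.6, 20.1, 29.7 and 19.2. Every K27M tumour lay well above every WT tumour, and the log2 fold change was 2.32 ± 0.36 (SE; adjusted p = 0.00153 by edgeR). The doubly marked region chr6:53742801-53783200 (40.4 kb) came next. K27M tumours had 108.0, 125.7 and 191.0 RPM as lowest, median and highest, and WT tumours 7 to 11 had 25.5, 14.4, 26.2, 36.5 and 32.5. The groups were far apart there too, with a log2 fold change of 2.26 ± 0.30 (SE; adjusted p = 0.000662 by edgeR).

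Doubly marked regions were not the only ones higher in K27M. At chr15:6888401-6980800 (92.4 kb, H3K27ac in 6 tumours, no H3K4me3) K27M tumours had 148.3, 325.4 and 447 RPM as lowest, median and highest. In WT tumours 7 to 11 the values were 108.7, 57.3, 105.4, 29.0 and 16.5. All K27M tumours were above all WT tumours, with a log2 fold change of 2.20 ± 0.49 (SE; adjusted p = 0.0110 by edgeR). At chr12:55160401-55209200 (48.8 kb) the K27M values were 35.2, 67.2 and 157.7, and WT tumours 7 to 11 had 14.1, 10.1, 27.6, 18.7 and 19.2. The groups did not overlap, and the log2 fold change was 2.18 ± 0.43 (SE; adjusted p = 0.00598 by edgeR). The fifth of the regions past the threshold, chr5:135724001-135744600 (20.6 kb, doubly marked), had a log2 fold change of 1.54 ± 0.32 (SE; adjusted p = 0.00780 by edgeR). Its K27M values were 40.3, 55.8 and 67.0, and WT tumours 7 to 11 had 16.0, 7.74, 24.8, 12.2 and 31.4, with no overlap. In another run, missing islands were filled with 0 reads and 6933 regions were tested. Every region named by fold was called in all 11 tumours, so no value of theirs was filled. Only the other regions in the fit and the adjustment changed. The calls at both chromosome 6 regions held. The edgeR adjusted p was 0.0510 for the chromosome 15, 0.0519 for the chromosome 12 and 0.152 for the chromosome 5 region, so these 3 calls were lost.

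The regions that were lower in K27M ranged widely in width and were mostly without H3K27ac. At chr18:76953401-77014600 (61.2 kb, unmarked) K27M tumours had 17.3, 33.1 and 102.5 RPM as lowest, median and highest. The WT values, for tumours 7 to 11, were 181.9, 137.1, 188.9, 204.7 and 163.4. All K27M tumours lay below all WT tumours, with a log2 fold change of -1.96 ± 0.46 (SE; adjusted p = 0.0136 by edgeR). At chr5:114124401-114183400 (59 kb, H3K4me3 in 1 tumour) the K27M values were 57.8, 77.1 and 145.4. WT tumours 7 to 11 had 173.1, 357, 331, 145.2 and 669. K27M tumour 3, the highest of its genotype, stood just above WT tumour 10, the lowest of its own, and the log2 fold change was -1.80 ± 0.41 (SE; adjusted p = 0.0131 by edgeR).

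At chr2:77198601-77263000 (64.4 kb, H3K4me3 in 3 tumours) K27M tumours had 26.6, 40.4 and 48.1 RPM as lowest, median and highest. In WT tumours 7 to 11 the values were 238.3, 96.1, 263.0, 110.5 and 25.01. WT tumour 11 lay below every K27M tumour and the other WT tumours above them, with a log2 fold change of -1.99 ± 0.48 (SE; adjusted p = 0.0159 by edgeR). The unmarked region chr11:99450201-99503200 (53 kb) had the largest fold of this direction among the regions past the edgeR threshold, -2.33 ± 0.60 on the log2 scale (SE; adjusted p = 0.0230 by edgeR). K27M tumours had 10.7, 21.0 and 55.3 RPM as lowest, median and highest, and WT tumours 7 to 11 had 152.5, 274.6, 120.4, 116.9 and 12.8. WT tumour 11 again sat among the K27M tumours. This call was lost without K27M tumour 1, 4 or 5 or WT tumour 8, with edgeR adjusted p between 0.0508 and 0.0608, with sex as a covariate (0.0623) and with missing islands filled with 0 reads (0.163). At chr4:58991201-59014800 (23.6 kb, H3K4me3 in all 5 tumours and no H3K27ac) the log2 fold change was -1.61 ± 0.39 (SE; adjusted p = 0.0161 by edgeR). K27M tumours had 17.3, 24.8 and 41.3 RPM there as lowest, median and highest, and WT tumours 7 to 11 had 122.6, 31.0, 87.5, 105.7 and 39.9. WT tumours 8 and 11 lay within the K27M range and the other WT tumours above it. Filling the missing islands of other regions with 0 reads also ended the calls of the other 4 named regions lower in K27M. Their edgeR adjusted p was 0.0997 (chr18:76953401-77014600), 0.0866 (chr5:114124401-114183400), 0.123 (chr2:77198601-77263000) and 0.209 (chr4:58991201-59014800).

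The widest region, chr5:119851401-120034000, did not pass the test, with a log2 fold change of -1.15 ± 0.57 (SE; adjusted p = 0.207 by edgeR). The region chr8:3680201-3755000 had a log2 fold change of 1.06 ± 0.33 (SE; adjusted p = 0.0509 by edgeR), and passed with DESeq2 (0.0101) and with edgeR without WT tumour 8 (0.0126).

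**Figure D4:**
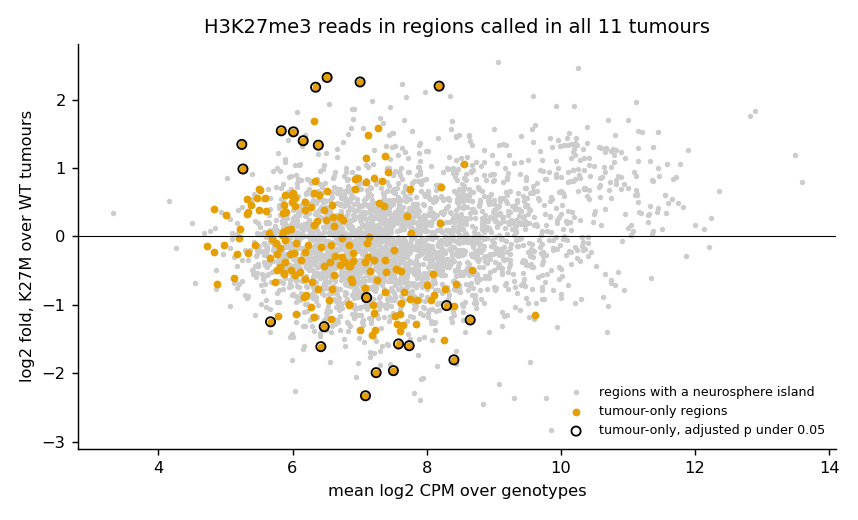
Each point is a region with an H3K27me3 island in all 11 tumours (2971), plotted by mean log2 CPM over the genotypes (x axis) and log2 fold of K27M over WT tumours (y axis). The 187 tumour-only regions (orange) lie in the lower part of the signal range, and the 22 past an adjusted p of 0.05 (ringed) split into 10 above and 12 below 0.

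Tumour-only regions lay on every autosome, in uneven shares. Of the regions with an island in 8 or more tumours, the tumour-only share was highest on chromosome 5, at 27.8% (139 of 500; 95% Wilson interval 24.1 to 31.9%). It was lowest on chromosome 1, at 14.8% (56 of 379; 11.6 to 18.7%). Chromosomes 7 and 17 followed chromosome 5 with 24.9% and 24.4%, and chromosomes 19 and 2 stood above chromosome 1 with 16.9% and 17.1%. The intervals cover counting error only, and neighbouring regions are not independent. On chromosome 1, 19 regions were doubly marked and 10 unmarked, against 16 and 51 on chromosome 5 and 18 and 64 on chromosome 7. On chromosome 1 alone among chromosomes 1, 5 and 7 the doubly marked regions were the more frequent.

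**Figure D5:**
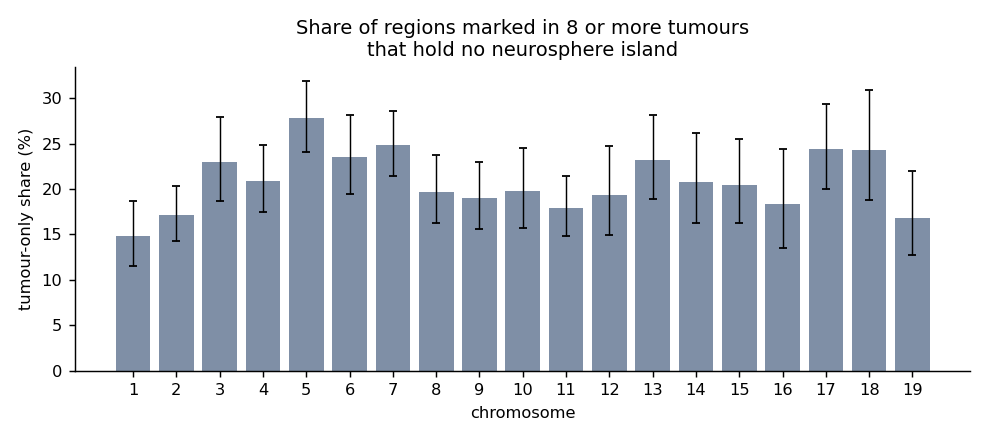
Bars give, for each autosome, the percentage of regions marked in 8 or more tumours that held no neurosphere island, with 95% Wilson intervals. The share runs from 14.8% on chromosome 1 to 27.8% on chromosome 5, and the intervals of these 2 do not meet.

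Many of the regions lay in runs. Runs were not built for the other regions of 8 or more tumour lists, so whether the tumour-only regions cluster more than those was not tested. Taking neighbours less than 500 kb apart as 1 run, the 1448 regions formed 726 runs, of which 434 held a single region. The remaining 1014 regions had a neighbour in the same run, and 52 runs of 5 or more regions held 393 of them. The longest runs had 14 regions each. One spanned chr4:129680601-131318600, where 14 of 27 regions of 8 or more tumour lists were tumour-only, 12 of the 14 were unmarked and the genotypes called 86.9% (K27M) and 85.7% (WT) of the region-tumour pairs. The other spanned chr7:24928801-25634000, with 14 of 19 regions tumour-only and calls in 66.7% of pairs in K27M tumours against 88.6% in WT tumours. Both also held regions with a neurosphere island.

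A run of 11 regions at chr6:117268601-117763000 held no neurosphere island at all over its 494.4 kb. All 11 regions of 8 or more tumour lists in it were tumour-only, 9 of them unmarked and 0 doubly marked. Its K27M calls were 78.8% and its WT calls 83.6% of region-tumour pairs. Its widest member, chr6:117370401-117417000 (46.6 kb), was called in all 11 tumours at a mean of 29.4 reads per kb of island.

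Neurosphere islands were often not far away. The median distance to the nearest region with a neurosphere island was 30.5 kb, beside 41.4 kb for all 35173 merged regions with no neurosphere island. Within 5 kb of one lay 22.9% of the tumour-only regions and 17.1% of all regions with no neurosphere island. Doubly marked regions lay farther off, at a median of 57.3 kb, with 12.2% within 5 kb. Unmarked regions lay closer, at 20.2 kb, with 28.4% within 5 kb.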

How the data were processed

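Members, classes and lists were chosen with earlier results of these data known, some of the named regions among them, and the doubly marked and unmarked classes after the values were seen. The 20 deposited H3K27me3 lists give the count of reads in each island, as the authors deposited it, from a window of 200 bp per the file names. The deposited H3K27ac and H3K4me3 peak lists carry a score, a fold enrichment ratio, and −log10 p-values and q-values from the authors' caller, with −log10 q of 2 or more. Build mm9 and the tools SICER 1.1, MACS2, bedtools 2.25.0, BWA 0.7.12, SAMtools, Picard and R 2.14.0 are listed without roles in the submitters' processing notes. Each list is 1 sample. Drosophila spike-in chromatin was added per the labels' protocols, but no scale factor was used, so no value measures an absolute amount. The 23 input samples were not analysed here.

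Islands sharing 1 bp were merged, and overlap of 1 bp counted a peak to a region. Reads of islands were summed per region. edgeR 4.0.16 (quasi-likelihood, TMM, Benjamini-Hochberg, R 4.3.3) tested regions called in all 11 tumours, after a check on simulated counts. H3K27ac calls were compared by two-sided Fisher's exact tests. DESeq2 1.42.0, other thresholds and tumours left out in turn were alternatives. Other steps ran in Python 3.11.15 with pandas 2.3.3, numpy 2.4.6, matplotlib 3.10.9 and SciPy 1.17.1. Tumours are not said to come from separate animals, so a p-value measures only the spread between these libraries, which may be technical.

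Named regions were the 5 by reads, width and reads per kb, the 5 in each direction by edgeR fold among those past the adjusted threshold, the 5 by reads among regions with H3K4me3 or H3K27ac in all tumours, and the longest runs. The chromosome 6 run and the chromosome 10 H3K27ac region were picked after their values were seen. With no mm9 annotation at hand, gene lists and cell type markers could not be applied and no sequence is shown.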

Additional observations from a re-analysis of the deposited data

Results flagged for a closer look

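Of 82 sets of tumours checked for a value far from the rest of its genotype, 6 held one, and chance alone gives about 1 in 20. WT tumour 10, the library with most island reads, had the highest median read density of the WT tumours. It had 39.3 reads per kb over all tumour-only regions (next WT tumour 25.2), 39.0 over the unmarked ones (next 24.2) and 40.2 over those with peaks of some tumours or of 1 mark (next 26.3). At chr5:136792801-136920800 WT tumour 9 had 626 RPM, with 111.0 in the next WT tumour. Among K27M tumours, K27M tumour 5 had 110.4 RPM at chr3:5858601-5861000 (next 32.0) and 22.2 at chr18:68851601-68853800 (next 12.1). These last 2 regions were among the shortest and densest, and K27M tumour 5 had the fewest island reads of its genotype. Its raw reads at chr3:5858601-5861000 were 259, inside the range of 214 to 300 over the tumours with an island. WT tumour 11, with the fewest island reads of all, had 113.9 RPM there. At chr18:68851601-68853800 K27M tumour 5 had 52 raw reads, between the lowest count of 46 in WT tumour 11 and the highest of 102 in WT tumour 10. The cause of the high RPM at these regions was not tested.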

How the results depend on the processing

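No region named by reads, width or fold and tested with edgeR changed its sign under an alternative, and no mean difference did. The other named regions were not followed through the alternatives. The median log2 fold of the tumour-only regions, -0.24, was 0.0085 without WT tumour 8. The number of tumour-only regions was 893 with 9 or more tumour lists, 187 with all 11, and 247 with the same number of top islands (4860) in all 20 lists. The number was 3580 when only the K27M neurosphere lists had to be empty, and 1484 when only the WT neurosphere lists had to be. It ran from 941 (without K27M tumour 2) to 1795 with 1 list left out. With 9 or more lists, all 11 lists and equal top islands, in that order, the H3K4me3 shares were 60.02%, 66.8% and 82.2%, and the H3K27ac shares 47.3%, 50.8% and 53.4%. Median widths were 17.8 kb with 9 or more lists, 23.4 kb with all 11 and 19 kb with K27M neurospheres alone. With 7 or more lists the shares were 49.5% and 41.0% and the width 15.1 kb. Merging within 1000 bp gave 58.4%, 47.9% and 19.4 kb, and peaks of −log10 q of 5 or more gave 41.0% for H3K27ac. With 1 list left out the ranges were 53.8% to 60.04% (H3K4me3), 42.3% to 49.1% (H3K27ac) and 16.4 to 17.6 kb. In the read test, DESeq2 called 605 regions, 288 of them lower, and 20 higher and 32 lower tumour-only regions. Scaling to the reads summed over the tested regions moved the median of all regions to -0.30. It called 163 higher and 335 lower regions, against 218 and 161 with TMM factors, with 9 and 31 tumour-only. Filling missing islands with 0 reads over 6933 regions called 135 regions, 126 higher and 9 lower, with 3 and 0 tumour-only. It ended 8 of the 10 calls of regions named by fold, though none of these regions had a missing island itself. With 1 tumour left out, calls ran from 236 to 451 (152 to 275 higher, 84 to 176 lower), and tumour-only calls from 9 to 25 higher and 6 to 15 lower. H3K27ac calls stayed at 0 in each alternative run, where the small number of tumours set the same kind of limit. By alternatives chosen after seeing the data, the mean difference in called share of doubly marked regions, 24.6 percentage points, was 17.01 to 25.7 with a tumour left out, 25.3 among females and 35.9 with 10716 top islands per tumour. The cause of these changes was not tested. No paired analysis was possible because tumours share no replicate numbers between genotypes and the neurospheres, which do, enter no test. A list with few island reads cannot show weak islands, and total depth is unknown.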

Other observations

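The rule covered autosomes. Applied to the X chromosome, it gave 7 of 103 regions with an island in 8 or more tumour lists (6.80%), with a median width of 53.6 kb. The tumours and neurospheres differ in sex, and the part of sex in this share was not tested.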
